A study of Mus musculus with 4 samples.

Results

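A set of 10 secreted or membrane-bound guidance genes was followed through nuclei of the injured mouse cortex. They were the Slit ligands Slit1, Slit2 and Slit3, the Roundabout receptors Robo1 and Robo2, the Eph receptors Epha3, Epha4 and Epha7, and the ephrin ligands Efna5 and Efnb2. The members, 10 of 33696 gene features, were chosen by name, not by level, but with earlier results of these data known. Their unique molecular identifiers (UMIs) were counted by cell type, fibroblast state, region and library. Every member was detected in each of the 4 matrices. Together they held 651787 of 159975465 UMIs, or 0.407% of the total, from 0.366% in the control parenchyma to 0.484% in the control lesion.

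Single-nucleus RNA sequencing (snRNA-seq) was carried out 21 days after photothrombotic injury, a light-induced clotting of cortical vessels that leaves a fibrotic scar. A control library from mice that the series calls wildtype was set against a Cxcl12-cKO library from Col1a2(creER); Cxcl12(flox) mice, in which tamoxifen-induced Cre under the Col1a2 promoter removes the chemokine gene Cxcl12 from fibroblasts. The mice were backcrossed to C57BL/6, and the labels give no age. Each library pooled nuclei of 1 male and 1 female mouse, sorted on DAPI with no selection for a cell type, and multiplexing tags separated nuclei of the lesion from those of the surrounding parenchyma. Several kinds of control mice served the study's conditional deletions, among them littermates without Cre or with a single floxed allele and, in places, mice from other litters, and the sources used here do not say which entered the control pool. With 1 library per genotype, genotype and library cannot be told apart, so no test was made between them. Intervals are 95% exact intervals and cover counting error only. Values given as a pair are for the control library first and the library labelled Cxcl12-cKO second.

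After filtering, 21743 of 23489 barcodes remained, with 8095 and 7933 lesional nuclei (medians of 2962 and 2975 UMIs) and 2877 and 2838 parenchymal nuclei (medians of 15915 and 16648 UMIs). The libraries shared 47 barcodes. Cxcl12 in lesional fibroblast-like nuclei stood at 106 and 216 CPM (the gene's UMIs scaled to 1e6 UMIs of the class), so the higher value was in the library labelled Cxcl12-cKO, in female nuclei (101 and 265 CPM) as in male nuclei (108 and 188 CPM). That goes against the label, although tags from the 3′ end do not report on the deleted segment. Nuclei were grouped by clustering without the members, and each class was named from fixed markers. Fibroblast-like nuclei, for example, held 6 of 6 fibroblast markers above all other nuclei, at a summed level of 3816 against 268 CPM.

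Slits are large secreted proteins that bind Robo receptors on growing axons and migrating cells and most often repel them. Ephrins are tethered to the surface of one cell and bind Eph receptors on a neighbour, and signals pass into both cells. Both systems sort cells and axons at tissue borders during development, persist in the adult cortex, and are known in meningeal and other fibroblasts as well as in neurons.

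Slit2 (ENSMUSG00000031558), the Slit best known for repelling commissural axons, was mainly a fibroblast gene in the lesion. It stood at 2341 CPM (2316 to 2366) in 4124 fibroblast-like nuclei of the control library and at 1945 CPM (1922 to 1968) in 4057 nuclei of the library labelled Cxcl12-cKO. Excitatory-neuron-like nuclei of the lesion held 254 and 292 CPM. Inhibitory-neuron-like nuclei held 433 and 294 CPM. A small osteoblast-like group of 38 control nuclei, which held 5 of 6 osteoblast markers (Dmp1 was the exception), held more, 3185 CPM (2868 to 3527). When each nucleus was thinned to 1000 UMIs, so that depth was equal, 63.0% and 58.7% of lesional fibroblast-like nuclei kept a Slit2 UMI. Among lesional myeloid nuclei of clusters without another class's markers, taken as the background for free RNA, the share was 5.82% and 7.95%, at median depths of 2039 and 2262 UMIs before thinning. Lesional fibroblast-like nuclei had medians of 3074 and 3104 UMIs.

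**Figure D1:**
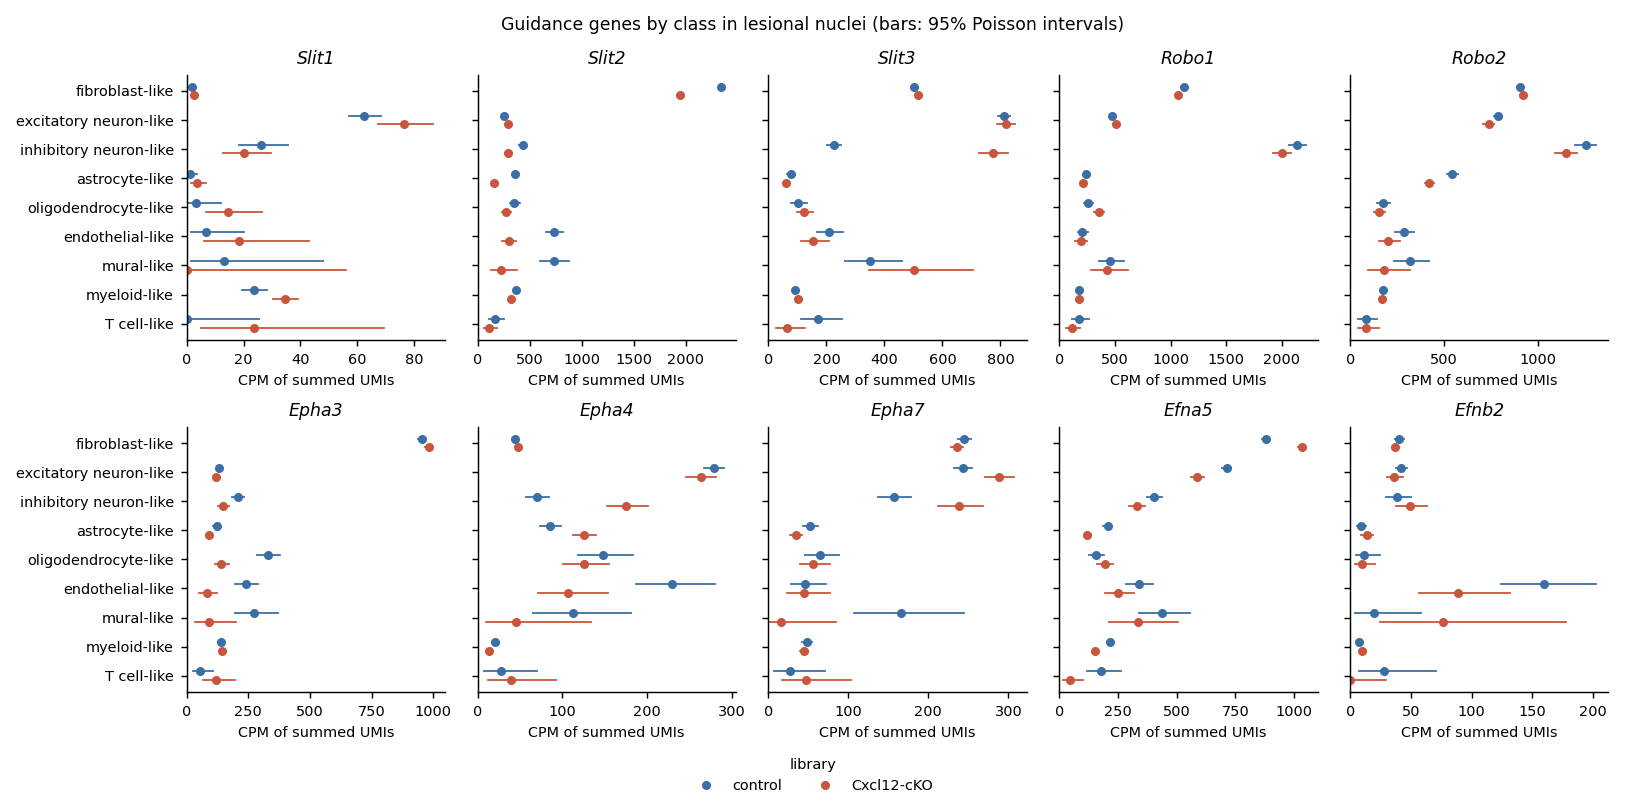
Level of each member by class in the lesion, in CPM on a linear axis from 0, with 1 point per library and bars for the 95% exact Poisson interval. Slit2 is highest among the large classes in fibroblast-like nuclei (2341 and 1945 CPM), Robo1 in inhibitory-neuron-like nuclei (2138 and 2003 CPM), and Slit1 in excitatory-neuron-like nuclei (62.4 and 76.5 CPM).

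Slit3 (ENSMUSG00000056427), a Slit also made by mesenchymal tissues, was divided between stroma and neurons. Lesional fibroblast-like nuclei held 503 CPM (492 to 515) and 516 CPM (505 to 528), and lesional excitatory-neuron-like nuclei held 812 CPM (792 to 832) and 818 CPM (787 to 849). The thinned share was 21.3% and 22.1% in the fibroblast-like class and 44.6% and 42.4% in the excitatory class, against 2.31% and 2.72% in the myeloid nuclei used as background. Slit3 was therefore above that background in each class as a whole, though not in every fibroblast state, as given below.

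Slit1 (ENSMUSG00000025020), a Slit expressed mainly in the nervous system, had the fewest fibroblast UMIs of the Slit genes. Lesional fibroblast-like nuclei gave 26 and 40 Slit1 UMIs in all, or 1.83 CPM (1.20 to 2.68) and 2.74 CPM (1.96 to 3.74), and their thinned shares of 0.124% and 0.328% lay below the myeloid ones of 2.38% and 4.11%. Those myeloid nuclei include clusters that held Slit1 themselves, as given below, so for this gene they are not a floor. Parenchymal fibroblast-like nuclei gave 0 UMIs in both libraries, where 0 UMIs allows up to 16.5 and 17.3 CPM. Excitatory-neuron-like nuclei of the lesion held 62.4 CPM (57.0 to 68.2) and 76.5 CPM (67.3 to 86.6). Oligodendrocyte-precursor-like nuclei held 19.0 CPM (3.91 to 55.4; 3 UMIs) and 70.8 CPM (38.7 to 119; 14 UMIs). Neuronal levels were thus well above those of the fibroblast-like class.

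The lesional myeloid class also held Slit1, at 23.6 CPM (19.5 to 28.3; 115 UMIs) and 34.5 CPM (30.3 to 39.1; 243 UMIs). Within it, the cluster led by F13a1, Mamdc2 and Mrc1 held 44.5 CPM (34.6 to 56.4; 624 nuclei) and 46.2 CPM (38.3 to 55.3; 896 nuclei). F13a1 and Mrc1 are genes of border-associated macrophages. When the members were used in clustering, those genes led a cluster of 222 nuclei and Mamdc2 led another of 1294 nuclei. Slit1 was not read in these parts, so its level is not assigned to either. The cluster led by Gm2629, Sall3 and Lrguk held 14.9 CPM (9.89 to 21.5) and 33.1 CPM (26.2 to 41.2). By mouse, the class held 21.2 and 35.0 CPM in female nuclei and 31.9 and 36.3 CPM in male nuclei, and Slit1 was found in all 4 sets of nuclei. The 6 excitatory-neuron markers summed to 106 and 95.8 CPM in the myeloid class and to 73.7 and 80.2 CPM in the fibroblast-like class, where Slit1 stood at 1.83 and 2.74 CPM. The part of these neuronal markers in the myeloid Slit1 level was not tested.

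Robo1 (ENSMUSG00000022883), a transmembrane receptor for Slits, was highest in inhibitory-neuron-like nuclei and next in fibroblast-like nuclei. The inhibitory class of the lesion held 2138 CPM (2064 to 2213) and 2003 CPM (1923 to 2084), and the fibroblast-like class held 1118 CPM (1100 to 1135) and 1071 CPM (1054 to 1088). Excitatory-neuron-like nuclei followed with 476 and 509 CPM. Thinned shares were 77.2% and 73.9% of inhibitory nuclei and 57.9% and 57.6% of fibroblast-like nuclei, against 6.10% and 7.20% in the myeloid background. The order of the 3 classes was the same in both libraries and their intervals did not overlap.

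Robo2 (ENSMUSG00000052516), the paralogue of Robo1, gave the same order of these 3 classes. Lesional inhibitory-neuron-like nuclei held 1254 CPM (1198 to 1313) and 1149 CPM (1089 to 1211), fibroblast-like nuclei 905 CPM (889 to 920) and 921 CPM (905 to 937), and excitatory-neuron-like nuclei 787 CPM (768 to 807) and 738 CPM (709 to 768). The 38 osteoblast-like control nuclei held 1791 CPM (1556 to 2053). Astrocyte-like nuclei of the lesion held 544 and 422 CPM. One control astrocyte cluster of 57 nuclei, led by Gpc5, Prex2 and Slco1c1, held 1070 CPM (930 to 1224).

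Efna5 (ENSMUSG00000048915), a lipid-anchored ligand of A-class Eph receptors, was shared by fibroblasts and excitatory neurons. Fibroblast-like nuclei of the lesion held 879 CPM (864 to 895) and 1032 CPM (1016 to 1049), excitatory-neuron-like nuclei 713 CPM (695 to 732) and 589 CPM (563 to 616). Inhibitory-neuron-like nuclei held 403 and 331 CPM. The highest level lay outside the fibroblast-like class as defined here. A lesional cluster led by Postn, Mylk and Mmp13, genes of the matrix, of contraction and of matrix breakdown, held 5885 CPM (5722 to 6051; 317 nuclei) and 4721 CPM (4426 to 5030; 79 nuclei). After thinning, 98.0% and 97.3% of its nuclei kept an Efna5 UMI. All 6 fibroblast markers were higher in that cluster than in all other nuclei, so its markers name it fibroblast, with osteoblast as the next list. Its nuclei came from clusters that the first clustering had not named fibroblast, and they were not counted in the class. With that cluster and a smaller dividing one of the same name added, the class held 1163 and 1099 CPM of Efna5. Slit2 was also high there, at 3759 and 4746 CPM, while Robo1 stood at 539 and 646 CPM and Robo2 at 217 and 301 CPM.

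Efnb2 (ENSMUSG00000001300), a transmembrane ephrin that marks arterial endothelium, was highest in lesional endothelial-like nuclei, at 160 CPM (124 to 202; 69 UMIs) and 88.6 CPM (56.8 to 132; 24 UMIs). Excitatory-neuron-like nuclei held 41.8 and 36.3 CPM, and fibroblast-like nuclei 40.5 and 37.3 CPM. Those latter values overlapped within their intervals in each library. Fibroblast markers summed in the endothelial-like class to 41.1% and 30.8% of the lesional fibroblast level, and their part in its values was not tested. Efnb2 was lower in fibroblast-like than in endothelial-like nuclei in each library.

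Epha3 (ENSMUSG00000052504), a receptor for A-class ephrins, was the Eph receptor most weighted to fibroblast-like over neuronal nuclei. It stood at 952 CPM (936 to 968) and 982 CPM (966 to 998) in lesional fibroblast-like nuclei. Excitatory-neuron-like nuclei held 132 and 120 CPM, and inhibitory-neuron-like nuclei 207 and 148 CPM. Thinned shares in the fibroblast-like class were 31.0% and 33.4%, against 3.29% and 4.64% in the myeloid background.

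Epha4 (ENSMUSG00000026235), which binds ephrins of both the A and the B class, showed the opposite split. Lesional excitatory-neuron-like nuclei held 278 CPM (267 to 290) and 263 CPM (246 to 281), and fibroblast-like nuclei 43.7 CPM (40.3 to 47.2) and 47.8 CPM (44.3 to 51.5). Endothelial-like nuclei held 230 and 107 CPM. Epha7 (ENSMUSG00000028289), another A-class receptor, was spread over both classes, with 245 and 236 CPM in fibroblast-like nuclei, 243 and 289 CPM in excitatory-neuron-like nuclei, and 157 and 238 CPM in inhibitory-neuron-like nuclei of the lesion. Fibroblast and excitatory levels of Epha7 had overlapping intervals in the control library.

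The 4 fibroblast clusters of the lesion were compared next, since ligands and receptors were spread unevenly within the class. The late inner-like state (1024 and 1346 nuclei, led by Nav2, Matn4 and Erg) and the leptomeningeal-like state (1238 and 1204 nuclei, led by Trpm3, Ranbp3l and Ptgds) carried the markers fixed for those names. The other two stayed unnamed and are called the Galnt13 Slc9b2 state (1480 and 1022 nuclei) and the Col4a6 Lama1 state (382 and 485 nuclei) after leading genes. Levels were also read in the female and male nuclei of each library, which gave 4 sets per state. Members of one set share a library, and no test was made.

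Slit2 divided the states into 2 high and 2 low ones. It held 3290 and 2650 CPM in the late inner-like state and 2939 and 2693 CPM in the Galnt13 Slc9b2 state, against 1070 and 894 CPM in the leptomeningeal-like state and 390 and 246 CPM in the Col4a6 Lama1 state. Over the 4 sets, the late inner-like state ranged from 2635 to 3858 CPM and the Galnt13 Slc9b2 state from 2147 to 3021 CPM, so these overlapped. The leptomeningeal-like state ranged from 625 to 1461 CPM and the Col4a6 Lama1 state from 174 to 441 CPM, lowest in 4 of 4 sets. Late inner-like nuclei held 8.42-fold and 10.7-fold more Slit2 than Col4a6 Lama1 nuclei, a log2 ratio of 3.07 (2.94 to 3.21) and 3.43 (3.28 to 3.58). Thinned shares followed, at 83.6% and 77.3% of late inner-like nuclei and 16.0% and 17.1% of Col4a6 Lama1 nuclei.

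Slit3 was divided along the same line. It held 657 and 701 CPM in the late inner-like state and 771 and 897 CPM in the Galnt13 Slc9b2 state, but 51.8 and 50.6 CPM in the leptomeningeal-like state and 70.5 and 74.5 CPM in the Col4a6 Lama1 state. Late inner-like nuclei exceeded leptomeningeal-like nuclei 12.6-fold and 13.8-fold (log2 ratio 3.66, 3.45 to 3.89, and 3.79, 3.58 to 4.01). In all 4 sets the leptomeningeal-like state was lowest, between 38.8 and 59.8 CPM. Its thinned shares by set, from 1.70% to 4.14%, had intervals that overlapped those of the myeloid background (2.31% and 2.72%).

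Robo1 ran the other way. It held 691 and 642 CPM in the late inner-like state, 916 and 883 CPM in the Galnt13 Slc9b2 state, 1667 and 1646 CPM in the leptomeningeal-like state and 1718 and 1583 CPM in the Col4a6 Lama1 state. The late inner-like state was lowest in 4 of 4 sets (629 to 729 CPM), and the leptomeningeal-like sets lay between 1615 and 1726 CPM. Leptomeningeal-like nuclei held 2.41-fold and 2.57-fold more Robo1 than late inner-like nuclei, a log2 ratio of late inner-like over leptomeningeal-like nuclei of -1.27 (-1.34 to -1.20) and -1.36 (-1.42 to -1.30). The states richest in Slit ligand were thus the poorest in Robo1.

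Robo2 did not share that gradient. Its 4 sets ranged from 787 to 981 CPM in the late inner-like state, 845 to 1149 CPM in the leptomeningeal-like state, 701 to 898 CPM in the Galnt13 Slc9b2 state and 814 to 1247 CPM in the Col4a6 Lama1 state. All of these ranges overlapped.

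Joint detection of a Slit ligand and a receptor was read over the class and within the late inner-like state. Over all lesional fibroblast-like nuclei thinned to 1000 UMIs, 33.3% (31.8 to 34.7) of 4019 control nuclei held both Slit2 and Robo1, against 36.5% from the product of the separate shares, and 30.3% (28.9 to 31.8) of 3961 nuclei in the library labelled Cxcl12-cKO, against 33.8%. Within the late inner-like state alone the joint share was 36.6% against 36.0%, and 31.2% against 32.0%. Slit2 with Robo2 came to 29.6% against 30.2%, and 27.6% against 27.5%. Pairs of Slit2 and Robo1 were thus rarer than the product over the class as a whole and near it inside the state.

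For the ephrin pair the order was reversed. Efna5 and Epha3 were found together in 17.8% (16.6 to 19.0) of control nuclei against a product of 14.5%, and in 20.2% (19.0 to 21.5) against 17.1%. Inside the late inner-like state the joint shares were 43.1% against 42.5%, and 42.0% against 41.5%.

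Among the receptors, Epha3 differed most between states. It held 2148 and 1902 CPM in the late inner-like state, 781 and 656 CPM in the Galnt13 Slc9b2 state, 564 and 597 CPM in the Col4a6 Lama1 state, and 213 and 209 CPM in the leptomeningeal-like state. The late inner-like state was highest in 4 of 4 sets (1647 to 2694 CPM), and no other state passed 921 CPM in any set. The close values of the Col4a6 Lama1 state covered opposite differences by mouse, with 131 and 852 CPM in female nuclei (log2 ratio 2.69) and 778 and 351 CPM in male nuclei (-1.14). The ratio of late inner-like over leptomeningeal-like nuclei was 10.1-fold and 9.11-fold, or 3.33 (3.22 to 3.44) and 3.19 (3.08 to 3.29) on the log2 scale.

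Efna5 was highest in the late inner-like state as well, at 1506 and 1574 CPM, followed by the Galnt13 Slc9b2 state (806 and 965 CPM), the leptomeningeal-like state (560 and 613 CPM) and the Col4a6 Lama1 state (382 and 397 CPM). The 4 sets gave 1446 to 1773, 780 to 1056, 499 to 655 and 241 to 426 CPM in that order, and none of these ranges overlapped. Efna5 was the only member in which the 4 states kept 1 order in all sets without overlap of neighbours.

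Epha7 and Efnb2 were highest in the Col4a6 Lama1 state in 4 of 4 sets, at 314 to 472 CPM for Epha7 and 68.3 to 147 CPM for Efnb2. Epha7 was lowest in the Galnt13 Slc9b2 state in 4 of 4 sets (119 to 173 CPM). Epha4, low throughout the class, was highest in the late inner-like state in 4 of 4 sets (55.0 to 92.5 CPM). Eph receptors therefore did not share 1 pattern over the states.

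Promoter windows are given for Slit2, Efna5 and Epha3, which were high in the same state, and for Robo1, which was lowest there. Bases are printed for Slit2, Efna5 and Robo1, and only the position for Epha3. Each window is the 250 bases before the RefSeq gene start on GRCm38.p6. Printed bases run 5′ to 3′ on the gene's strand, with capitals for the GC box GGGCGG or its reverse complement. RefSeq windows were matched for 9 of 10 members, and the files' own counts used another build.
Slit2, chr5:47982905-47983154, plus strand: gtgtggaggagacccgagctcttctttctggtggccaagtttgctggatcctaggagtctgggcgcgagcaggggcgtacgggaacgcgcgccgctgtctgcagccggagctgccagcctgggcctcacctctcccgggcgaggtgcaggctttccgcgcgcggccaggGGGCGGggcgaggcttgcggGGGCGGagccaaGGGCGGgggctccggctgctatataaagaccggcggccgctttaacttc
Efna5, chr17:62881318-62881567, minus strand: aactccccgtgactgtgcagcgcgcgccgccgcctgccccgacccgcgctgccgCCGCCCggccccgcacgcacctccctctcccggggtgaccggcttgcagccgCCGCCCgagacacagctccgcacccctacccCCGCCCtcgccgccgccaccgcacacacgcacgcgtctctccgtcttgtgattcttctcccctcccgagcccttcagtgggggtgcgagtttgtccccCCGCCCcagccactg
Epha3, chr16:63864176-63864425, minus strand: 
Robo1, chr16:72662899-72663148, plus strand: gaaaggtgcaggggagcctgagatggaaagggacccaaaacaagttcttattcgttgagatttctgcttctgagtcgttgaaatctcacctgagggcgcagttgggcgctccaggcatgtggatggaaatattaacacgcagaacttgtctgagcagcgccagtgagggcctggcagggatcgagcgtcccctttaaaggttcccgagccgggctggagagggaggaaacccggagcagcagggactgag

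The Slit2 window held 3 GC boxes and was 69.6% G or C, the Efna5 window held 4 and was 74.8% G or C, the Epha3 window held 0 and was 62.8% G or C, and the Robo1 window held 0 and was 56% G or C. The motif therefore did not separate the members high in that state from the one lowest there. Slit3 held 6, Efnb2 held 3, Epha4 and each of the 2 Epha7 windows held 1, and the 3 Robo2 windows held 0. Of 32851 RefSeq windows of that length, 32.7% held at least 1 such motif on either strand, and the median G or C share was 52.4%. A match describes the letters and is not a binding site.

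Lesional fibroblast-like nuclei were next set beside the few found in the parenchyma (51 and 50 nuclei), whose fibroblast markers summed to 1171 and 1149 CPM, or 30.4% and 29.8% of the lesional level. Epha3 differed most. It stood at 49.2 CPM (24.5 to 88.0; 11 UMIs) and 70.3 CPM (39.4 to 116; 15 UMIs) in the parenchyma, against 952 and 982 CPM in the lesion, a log2 ratio of 4.21 (3.44 to 5.28) and 3.76 (3.08 to 4.64). Slit2 differed far less, at 0.62 and 0.25 on the log2 scale. Robo2 differed by 1.13 and 1.25, Epha7 by 1.49 and 1.23, Robo1 by 0.94 and 0.40, Efna5 by 0.59 and 1.49, and Slit3 by 0.45 and 0.58. Epha4 gave -0.75 and -0.04, and Efnb2 gave 1.01 and -0.26, both on few parenchymal UMIs. Fibroblast states were set in lesional nuclei only, so state was not matched in these ratios. Both the lower marker level and the small number of nuclei apply to each of these ratios, and their part was not tested.

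Neuron types carried the members in separate patterns, which were read in the parenchyma because it held 2278 and 2169 excitatory-neuron-like and 413 and 454 inhibitory-neuron-like nuclei. Slit1 was highest in a near-projecting-like cluster led by Nxph1, at 315 CPM (276 to 358; 56 nuclei) and 359 CPM (307 to 417; 40 nuclei). The other near-projecting-like cluster, led by Tshz2 (74 and 81 nuclei), held 124 and 148 CPM, near corticothalamic-like nuclei (119 and 96.3 CPM). Layer 5 projection-like nuclei held 22.5 and 18.7 CPM and striatal-projection-like nuclei 11.3 and 8.09 CPM. The dissection thus included some nuclei with striatal markers, and both libraries held them (96 and 106).

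Slit2 separated inhibitory types. The Pvalb/Sst-like cluster led by Syt2 and Kcnc2 held 769 CPM (729 to 810) and 703 CPM (665 to 741), and 53.2% and 41.6% of its nuclei kept a UMI after thinning. The Adarb2-like cluster led by Ndnf held 9.81 and 22.2 CPM, and 0% of its nuclei kept one in either library. Among excitatory types, Car3-like nuclei held 468 and 461 CPM, middle-layer-like nuclei 332 and 352 CPM, layer 5 projection-like nuclei 293 and 302 CPM, upper-layer-like nuclei 171 and 172 CPM, and corticothalamic-like nuclei 74.9 and 70.9 CPM.

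Slit3 marked other neurons. Striatal-projection-like nuclei held 1365 CPM (1306 to 1425) and 1169 CPM (1117 to 1223), upper-layer-like nuclei 1071 and 1058 CPM, and layer 5 projection-like nuclei 1084 and 952 CPM. Corticothalamic-like nuclei held 183 and 206 CPM. The Adarb2-like Ndnf cluster that was low in Slit2 was low in Slit3 too, at 30.7 and 29.6 CPM, and the Adarb2-like cluster led by Vip held 43.1 and 21.5 CPM.

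**Figure D2:**
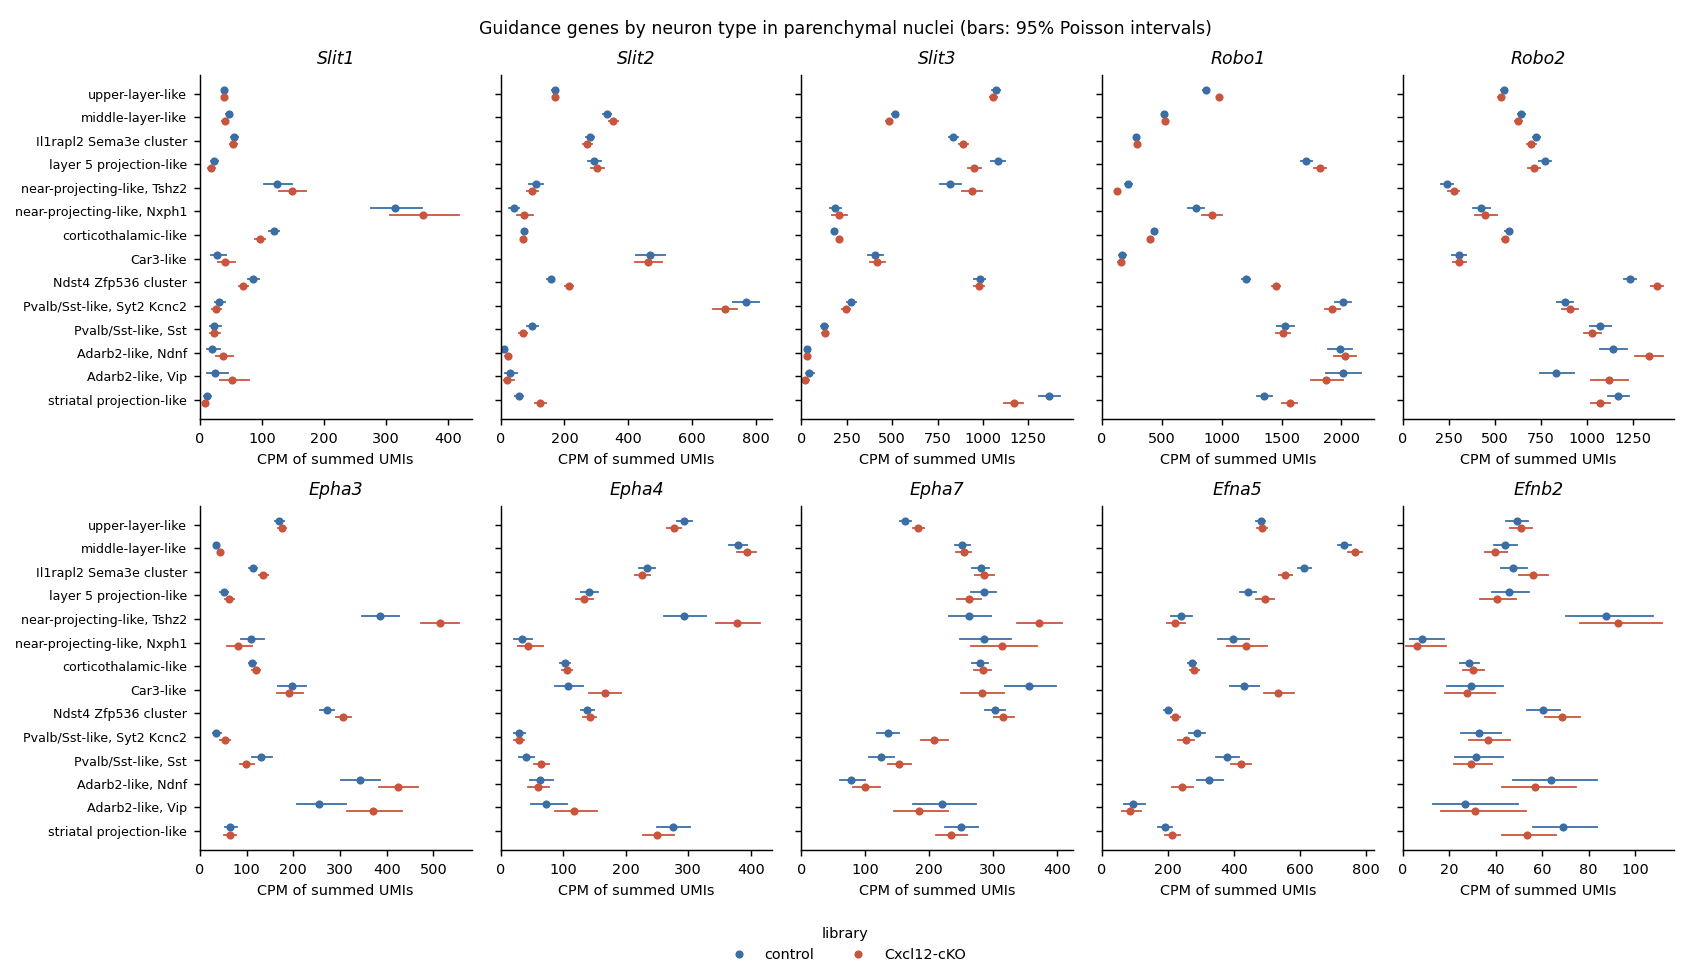
Level of each member by neuron type in the parenchyma, in CPM on a linear axis from 0, 1 point per library with 95% exact Poisson intervals. Slit1 peaks in the near-projecting-like cluster led by Nxph1 (315 and 359 CPM), Slit2 in the Pvalb/Sst-like Syt2 Kcnc2 cluster (769 and 703 CPM), and Slit3 in striatal-projection-like nuclei (1365 and 1169 CPM).

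Robo1 was high in every inhibitory type, from 1357 to 2016 CPM in the control library and from 1509 to 2026 CPM in the library labelled Cxcl12-cKO. Among excitatory types it varied widely. Layer 5 projection-like nuclei held 1707 and 1820 CPM, and a cluster led by Ndst4 held 1200 and 1451 CPM. Tshz2-led nuclei held 220 and 124 CPM and Car3-like nuclei 169 and 155 CPM. Robo2 was highest in the Ndst4-led cluster, at 1233 and 1383 CPM, and low in the Tshz2-led (239 and 277 CPM) and Car3-like (303 and 306 CPM) nuclei. Inhibitory types held between 835 and 1171 CPM of Robo2 in the control library and between 908 and 1337 CPM in the other.

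Ephrin and Eph genes split the cortical layers in a different way. Efna5 was highest in middle-layer-like nuclei, at 735 and 768 CPM, against 272 and 281 CPM in corticothalamic-like and 200 and 222 CPM in Ndst4-led nuclei. Epha3, a receptor of its class, held 34.8 and 43.0 CPM in those middle-layer-like nuclei and 272 and 307 CPM in the Ndst4-led ones. Tshz2-led nuclei held 385 and 513 CPM of Epha3. Epha4 was highest in the same nuclei as Efna5, at 379 and 393 CPM in middle-layer-like nuclei, and stood at 29.4 and 28.8 CPM in the Pvalb/Sst-like Syt2 Kcnc2 cluster. Epha7 reached 356 and 282 CPM in Car3-like nuclei and 78.5 and 100.3 CPM in the Adarb2-like Ndnf cluster. Efnb2 ranged from 8.15 and 6.33 CPM in the Nxph1-led cluster to 87.5 and 92.5 CPM in Tshz2-led nuclei.

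Neurons of the lesion dissection were then compared with those of the parenchyma, within each library. None of 10 members passed 2-fold in the same direction in both libraries in excitatory-neuron-like nuclei, where 10.8% of 14964 genes tested did, 1.24% higher and 9.52% lower in the lesion. None of 10 did so in inhibitory-neuron-like nuclei, where 6.74% of 10251 genes tested did, 0.585% higher and 6.16% lower. The median log2 ratio over all genes was -0.12 and -0.11 in the excitatory class and -0.02 and -0.11 in the inhibitory class. Median depth was lower in the lesion, at 13609 and 11640 UMIs against 17250.5 and 18224 UMIs for excitatory nuclei, and its part in the ratios was not tested.

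Robo1 was lower in excitatory-neuron-like nuclei of the lesion than in those of the parenchyma in both libraries, short of 2-fold. It stood at 476 against 742 CPM in the control library, a log2 ratio of -0.64 (-0.69 to -0.59), and at 509 against 811 CPM in the library labelled Cxcl12-cKO, -0.67 (-0.74 to -0.60). Neuron types contributed unequally. The ratio was -0.60 and -0.83 in upper-layer-like, -1.20 and -0.29 in middle-layer-like and -0.85 and -0.96 in corticothalamic-like nuclei, while the cluster led by Il1rapl2 gave 0.01 and 0.29. The layer 5 projection-like type, richest in Robo1, gave -0.04 (-0.15 to 0.06) in the control library, where it made up 29 of 529 lesional and 189 of 2278 parenchymal excitatory nuclei. The Ndst4-led cluster, next in Robo1, made up 9 of those lesional and 238 of those parenchymal nuclei, and in the other library it made up 0 of 258 lesional and 231 of 2169 parenchymal nuclei. The part of these unequal shares of neuron types in the class ratio was not tested.

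Efna5 was higher in lesional excitatory-neuron-like nuclei, at 713 against 460 CPM, a log2 ratio of 0.63 (0.59 to 0.68), and at 589 against 467 CPM, 0.34 (0.27 to 0.40). In upper-layer-like nuclei the values were 898 against 481 CPM and 775 against 486 CPM, log2 ratios of 0.90 and 0.68. Middle-layer-like nuclei gave 0.41 and 0.09. Fibroblast markers summed to 3.93% and 2.24% of the lesional fibroblast level in lesional excitatory nuclei. Efna5 is also a fibroblast gene, and the part of those markers in its ratio was not tested.

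The other members gave smaller or divided ratios in excitatory-neuron-like nuclei. Slit3 gave 0.16 and 0.16, Robo2 0.16 and 0.08, Epha4 0.28 and 0.19, and Slit2 0.29 and 0.42. For Slit2 the types disagreed, with 79.7 against 74.9 CPM (0.10, -0.24 to 0.40) and 268 against 70.9 CPM (1.92, 1.65 to 2.18) in corticothalamic-like nuclei, and -0.23 and 0.24 in upper-layer-like nuclei. Signs differed between libraries for Slit1 (-0.18 and 0.29) and Epha7 (-0.08 and 0.16). Epha3 gave -0.09 and -0.44, and Efnb2 -0.08 and -0.36.

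**Figure D3:**
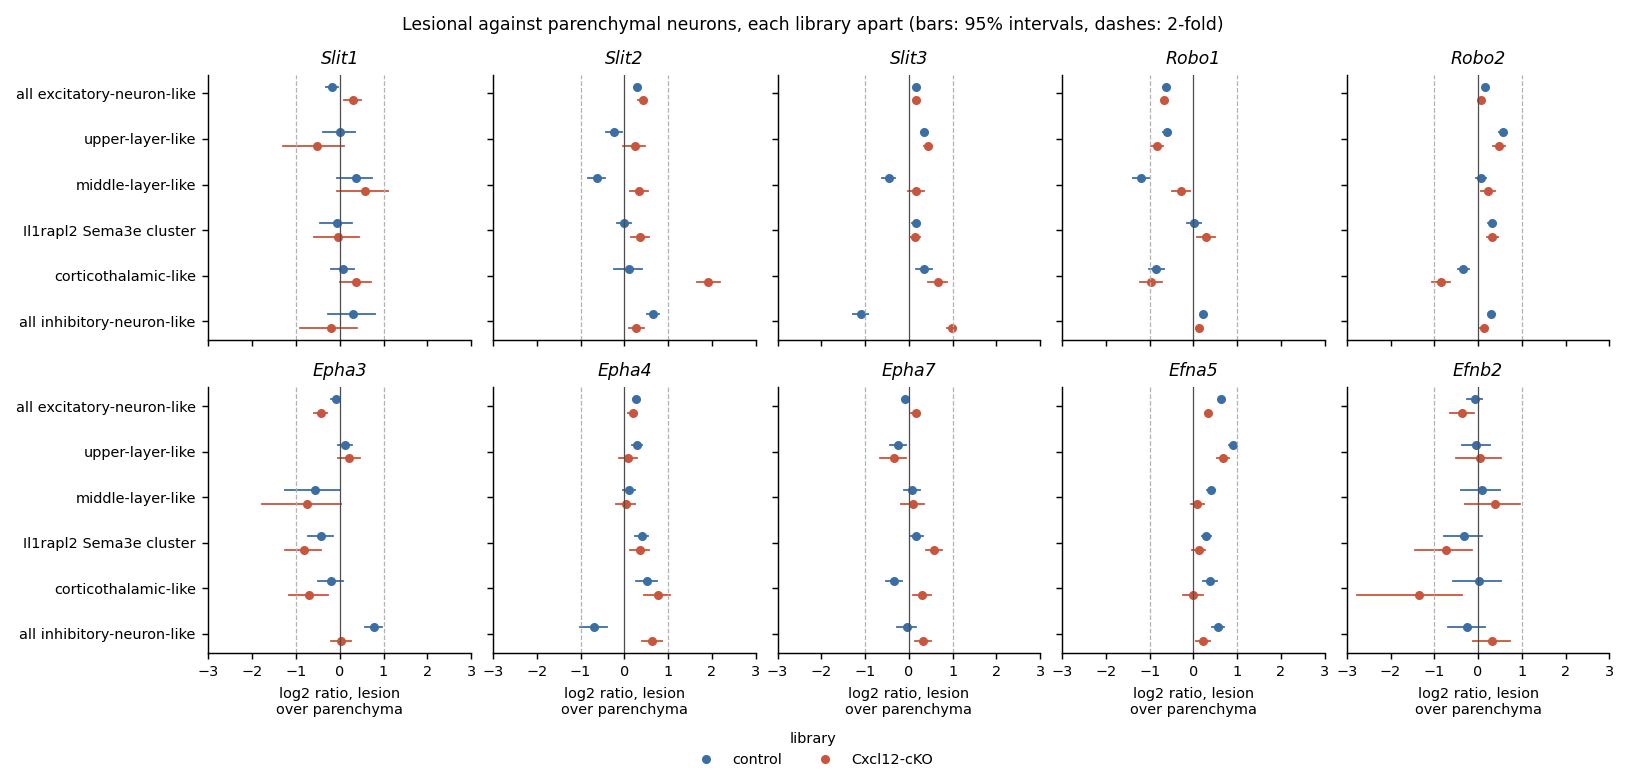
Log2 ratio of lesion over parenchyma for each member in excitatory-neuron-like nuclei, 4 of their clusters and inhibitory-neuron-like nuclei, with 1 point per library, 95% exact intervals and dashed lines at 2-fold. In excitatory nuclei Robo1 lies below 0 (-0.64 and -0.67) and Efna5 above 0 (0.63 and 0.34) in both libraries, and Slit3 in inhibitory nuclei gives -1.10 and 0.97, while male nuclei alone, which are not plotted, lie below 0 in both libraries (-1.02 and -2.12).

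In inhibitory-neuron-like nuclei, the ratio of Slit3 had opposite signs in the 2 libraries, but not in the nuclei assigned to the male mice. Slit3 stood at 226 CPM in the lesion against 486 CPM in the parenchyma of the control library, a log2 ratio of -1.10 (-1.27 to -0.94), and at 774 against 394 CPM in the library labelled Cxcl12-cKO, 0.97 (0.86 to 1.08). Male nuclei gave -1.02 and -2.12, lower in the lesion in both libraries, on 39 and 17 lesional nuclei. Female nuclei gave -0.97 and 1.11, and in the second library they were 84 of the 115 lesional inhibitory nuclei, at 901 CPM against 417 CPM in the parenchyma. Striatal-projection-like nuclei, the type richest in Slit3, numbered 30 and 58 of the 114 and 115 lesional inhibitory nuclei. Within that type the values were 443 against 1365 CPM (-1.62) and 1410 against 1169 CPM (0.27). Epha4 gave -0.69 and 0.63 over the class (-1.17 and 0.69 in female nuclei, -0.39 and -0.072 in male nuclei) and -0.92 and 0.22 within striatal-projection-like nuclei. Robo1 gave 0.22 and 0.13 and Robo2 0.31 and 0.13. Within the Pvalb/Sst-like Syt2 Kcnc2 cluster Robo1 stood at 2617 against 2015 CPM (0.38, 0.28 to 0.47; 33 lesional nuclei) and at 3209 against 1921 CPM (0.74, 0.63 to 0.85; 24 lesional nuclei).

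Slit2 in lesional striatal-projection-like nuclei stood at 562 against 56.3 CPM in the control library, a log2 ratio of 3.32, and at 262 against 124 CPM in the other, 1.07. Fibroblast markers summed there to 13.7% and 4.34% of the lesional fibroblast level, and their part was not tested.

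Among the 46 other genes of the pathways, 41 could be compared in excitatory nuclei and 34 in inhibitory nuclei. Flrt3, a leucine-rich transmembrane protein that binds Robo1, was the 1 that passed 2-fold in both libraries, and it was lower in the lesion in both classes. Over all genes tested, 9.52% were lower in excitatory and 6.16% in inhibitory nuclei, so the list passed less often than genes in general. Flrt3 stood at 15.3 against 49.7 CPM and 13.1 against 47.7 CPM in excitatory nuclei, log2 ratios of -1.69 (-1.98 to -1.43) and -1.85 (-2.34 to -1.43). Inhibitory nuclei gave -2.02 (23 lesional UMIs), with intervals below 0, and -1.59 (22 lesional UMIs). No gene of the list passed in the other direction.

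Between the libraries, no member passed 1.5-fold in lesional fibroblast-like nuclei, the class that carries Cre, where 5.81% of 14291 genes tested did (3.23% higher and 2.58% lower in the library labelled Cxcl12-cKO). Since Cxcl12 itself went against the label, each direction below is a direction between libraries. The median log2 ratio was 0.03 for the members, 0.05 for the other pathway genes and 0.00 for all genes. Slit2 was lower, 2341 against 1945 CPM, a log2 ratio of -0.27 (-0.29 to -0.24), with -0.57 in female and -0.12 in male nuclei. Efna5 was higher, 879 against 1032 CPM, at 0.23 (0.20 to 0.27), with 0.42 in female and 0.15 in male nuclei. That direction depended on which nuclei were counted. It turned to -0.081 (-0.11 to -0.051; 1163 and 1099 CPM) with the fibroblast-named clusters added, chosen after seeing the data, to -0.09 with no percentile filter on barcodes, and to -0.023 with classes set by the highest marker score. Slit2 was lower in all 12 alternatives run. Within the late inner-like state alone Slit2 gave -0.31 and Efna5 gave 0.06. Slit2 gave -0.26 in the leptomeningeal-like, -0.13 in the Galnt13 Slc9b2 and -0.66 in the Col4a6 Lama1 state. Male nuclei of the Galnt13 Slc9b2 state gave 0.043 (-0.011 to 0.097) for Slit2. The Col4a6 Lama1 state gave 0.38 in female and -0.99 in male nuclei. The Postn-led cluster outside the class gave 0.34 for Slit2, with -0.27 in female and 0.87 in male nuclei. Slit1 gave 0.57 (-0.16 to 1.36) on 26 and 40 UMIs, an interval that includes 0. The remaining 7 lay between -0.12 and 0.13.

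In lesional astrocyte-like nuclei (542 and 526), 4 of 9 members tested passed 1.5-fold, against 9.77% of 9676 genes tested (3.69% higher and 6.08% lower in the library labelled Cxcl12-cKO). Slit2 held 364 CPM (340 to 389) and 160 CPM (145 to 176), a log2 ratio of -1.18 (-1.36 to -1.01). Efna5 held 206 and 120 CPM (-0.79) and Epha7 held 52.2 and 34.1 CPM (-0.61, -1.03 to -0.20). Efnb2 was higher in the second library, at 8.63 and 13.5 CPM on 20 and 34 UMIs (0.63, -0.19 to 1.52). Epha4 was also higher there but short of 1.5-fold, at 85.4 and 125 CPM on 198 and 316 UMIs. By mouse, Epha4 stood at 76.5 and 117 CPM in female and 96.5 and 126 CPM in male nuclei.

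Fibroblast markers moved with the values of Slit2, Efna5 and Epha7. They summed to 905 and 332 CPM in lesional astrocyte-like nuclei, that is, 23.5% and 8.62% of the lesional fibroblast level. One astrocyte cluster that carried them held 119 of the 542 control nuclei (22.0%) and 79 of the 526 others (15.0%), and its Slit2 level was 996 and 618 CPM. Without that cluster Slit2 stood at 63.6 and 46.1 CPM, -0.46 (-0.89 to -0.04), Efna5 gave 0.08 and Epha7 gave 0.00. Epha4 stayed higher in the second library, at 0.42 (0.13 to 0.71) without that cluster and 0.77 (0.13 to 1.41) within it. Efnb2 still gave 0.61 (-0.42 to 1.77), but on 12 and 24 UMIs, under the minimum of 50 summed UMIs, so 0 members counted as past 1.5-fold. The remaining nuclei still held 306 and 186 CPM of fibroblast markers. Astrocyte-like nuclei of the parenchyma, 37 and 45 in number, held 38.1 and 38.9 CPM of Slit2.

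Members differed little between the libraries in the neuron sets compared over all genes, which left out lesional inhibitory nuclei. None of 10 members passed 1.5-fold in lesional excitatory nuclei (6.84% of 10560 genes tested, 2.97% higher and 3.86% lower), in parenchymal excitatory nuclei (3.77% of 16826, 2.34% higher and 1.43% lower) or in parenchymal inhibitory nuclei (3.93% of 12133, 1.99% higher and 1.94% lower). The largest ratios were Slit1 at 0.30 and Efna5 at -0.28 (-0.35 to -0.20) in lesional excitatory nuclei, Epha3 at 0.21 (0.16 to 0.26) in parenchymal excitatory nuclei, and Slit3 at -0.30 (-0.38 to -0.23) in parenchymal inhibitory nuclei. Robo1 gave 0.10 in lesional and 0.13 in parenchymal excitatory nuclei. In the lesional inhibitory nuclei left out, Slit3 stood at 235 and 901 CPM in female and 254 and 93.3 CPM in male nuclei. Epha4 stood there at 44.6 and 179 CPM in female and 90.8 and 103 CPM in male nuclei.

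Of the other pathway genes, 5 of 40 tested passed 1.5-fold in lesional fibroblast-like nuclei, against 5.81% of all genes tested (3.23% higher and 2.58% lower). Higher in the library labelled Cxcl12-cKO were Epha10, an Eph receptor (1.97 and 4.19 CPM, log2 ratio 1.07), Tiam1, a Rac exchange factor (50.8 and 82.8 CPM, 0.71), and Kalrn, a guanine nucleotide exchange factor (411 and 626 CPM, 0.61, with 1.27 in female and 0.18 in male nuclei). Lower were Dcc, the netrin receptor that Robo1 can silence (119 and 70.2 CPM, -0.76), and Ephb1, a B-class Eph receptor (17.0 and 10.9 CPM, -0.64).

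In lesional astrocyte-like nuclei, 5 of 30 passed, against 9.77% of all genes tested, and all 5 were lower (6.08% of all genes). They were Srgap1, which links Robo to the actin skeleton (406 and 203 CPM), Tiam1 (-0.78), Dcc (-0.69), Nell2 (-0.63), a ligand of Robo receptors, and Vav3 (-0.63), an exchange factor used by Eph receptors. The fibroblast markers given above moved with these as well. In parenchymal inhibitory nuclei Robo3 was lower on few UMIs (6.66 and 3.53 CPM, 40 and 25 UMIs, -0.91), the only one of 36, against 3.93% of all genes tested. None of 35 passed in lesional and none of 41 in parenchymal excitatory nuclei, where 6.84% and 3.77% of all genes tested did.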

How the data were processed

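The 4 deposited matrices, 1 per library and region, hold raw UMI counts that the authors made with Cell Ranger 9.0.0 on GRCm39, as the submitters' processing notes name them, from 10x Chromium 3′ v3.1 libraries with multiplexing tags. The 12 tag features were left out. So were barcodes in the top or bottom 2.5% by UMIs or genes or in the top 2.5% by mitochondrial share, as the study's methods state. This left 758 to 36243 UMIs per nucleus and 30864931 to 48051671 UMIs per matrix.

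Nuclei were clustered in scanpy 1.11.5 without the members and the other pathway genes, and classes were named from fixed marker lists. Doublets were scored with Scrublet, which called 0.137% and 0.158% of nuclei and so did not work, and no nucleus was removed on it. Counts were summed per class, cluster, region and library and given as CPM with exact Poisson intervals. Ratios carry exact conditional binomial intervals, with 0.5 added to each sum, and shares exact Clopper-Pearson ones. All intervals cover counting error only. A gene counted as past a fold (1.5 between libraries, 2 between regions in both libraries) with 50 or more summed UMIs. To compare shares, nuclei were thinned to 1000 UMIs, and 549 shallower ones were left out of that step. Nuclei were assigned to the female or male mouse by Xist and Y-linked genes, and those with both (1076 and 1305) or neither (1302 and 1337) stayed out of the values by mouse.

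All 10 members were read in every class, and the text gives only part of those values. Other pathway genes were named where they passed the fold, had an interval that excludes 0 and kept 1 direction in female and male nuclei. For likeness, the 3 genes with the highest Pearson correlation of log2(CPM + 10) were named per member. The members and all lists were chosen with earlier results of these data known. The ratio between libraries, its interval and the 1.5-fold call were checked on simulated counts, and the other steps were not. Alternatives were other clusterings, filters, weightings and single mice.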

Additional observations from a re-analysis of the deposited data

Results flagged for a closer look

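Some log2 ratios between the libraries (labelled Cxcl12-cKO over control) had opposite signs in female and male nuclei, or in lesion and parenchyma. None of these differences was tested, since each rests on 1 mouse per sex and library, and pooled mice were told apart by sex-linked genes.

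In lesional fibroblast-like nuclei, Slit3 gave 0.30 in female and -0.20 in male nuclei, Epha3 gave 0.26 and -0.088, and Epha7 gave -0.27 and 0.14. Robo2 in lesional excitatory-neuron-like nuclei gave 0.29 in female and -0.43 in male nuclei. Parenchymal excitatory-neuron-like nuclei gave 0.23 in female and -0.045 in male nuclei for Robo1, and -0.084 and 0.070 for Epha7. Robo2 in parenchymal inhibitory-neuron-like nuclei gave -0.088 in female and 0.14 in male nuclei. Slit1 in excitatory-neuron-like nuclei gave 0.30 in the lesion and -0.18 in the parenchyma, as ratios of the library labelled Cxcl12-cKO over control.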

How the results depend on the processing

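Genotype, library and mice cannot be told apart here, depth limits low genes such as Slit1 and Efnb2, and intervals cover counting error only. No paired analysis was possible because each genotype has 1 library. In lesional fibroblast-like nuclei, 1 member passed 1.5-fold rather than 0 with the first clustering at resolution 0.5 and with the members used in clustering (Slit1, 0.66 each), with the top 10% of Scrublet scores removed (Slit1, 0.82) and with nuclei weighted alike (Slit1, 0.85). The 4 members past 1.5-fold in lesional astrocyte-like nuclei came to 2 at resolution 0.5, 2 with the members used in clustering, 2 with nuclei weighted alike, 1 after thinning, 0 by highest marker score per nucleus, 0 without the top 10% of Scrublet scores and 0 without clusters that carried another class's markers, the last chosen after seeing the data, where Efnb2 kept 0.61 on 36 UMIs, under the minimum of 50. Epha7 there turned to 0.20 without the top Scrublet scores and 0.0033 without those clusters, Efna5 to 0.22 and 0.080, and Efnb2 to -0.0044 by marker score. In parenchymal inhibitory-neuron-like nuclei 1 member rather than 0 passed after thinning (Epha3). In inhibitory-neuron-like nuclei 1 rather than 0 passed 2-fold between regions in male nuclei alone (Slit3, -1.02 and -2.12). The cause was not tested in any of these. Slit2 in lesional fibroblast-like nuclei stayed lower in the library labelled Cxcl12-cKO in 12 of 12 alternatives (-0.57 to -0.12), and Efna5 stayed higher in 9 of 12 (-0.09 to 0.42). Of the 3 that turned, the one adding fibroblast-named clusters to the class (-0.081) was chosen after seeing the data.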

Other observations

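Genes whose level ran most like a member's were found over 63 sums of a cluster, region and library with at least 50 nuclei, among 18160 genes. The sums share libraries and depth, so the correlations are descriptions. Slit2 ran most like Itga11, a collagen-binding integrin subunit (Pearson 0.84), and Lmx1b (0.81), and Efna5 most like Flrt2 (0.86), while Slit2 and Efna5 correlated with each other at 0.71. Epha3 ran most like Grb10 (0.82), an adaptor of receptor kinases. Robo1 was nearest to Robo2 (0.80), Robo2 to Golm2 (0.85), Slit1 to Chgb (0.86), Slit3 to Gm12122 (0.84), Epha4 to Schip1 (0.81), Epha7 to Kcnt1 (0.85), a neuronal potassium channel, and Efnb2 to Shank3 (0.72).

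Members also stood high in a cluster of dividing nuclei led by Top2a, a topoisomerase used in replication, whose markers name it fibroblast and which was not counted in the fibroblast-like class. It held 20 nuclei in the control library and 38 in the library labelled Cxcl12-cKO. Efna5 stood at 1706 CPM (1437 to 2011) and 2258 CPM (2058 to 2471), Epha3 at 829 CPM (645 to 1049) and 1374 CPM (1219 to 1543), and Slit2 at 2331 CPM (2015 to 2683) and 2094 CPM (1902 to 2301).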
